A study of Mus musculus with 50 samples.

Results

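The genes examined here encode the core subunits of activator protein 1 (AP-1), a family of basic leucine zipper transcription factors. They were taken by symbol and number 10 of the 24984 genes in the count tables: Fos, Fosb, Fosl1 and Fosl2 of the FOS group, Jun, Junb and Jund of the JUN group, the stress-induced repressor and partner Atf3, and the lymphoid partners Batf and Batf3. AP-1 works as a pair of subunits, and FOS proteins bind DNA only with a JUN protein, whereas JUN proteins can also pair with each other. Several of these genes are immediate early genes, meaning that cells transcribe them within minutes of a growth factor, cytokine or injury and clear the transcript soon after. BATF proteins pair with JUN proteins in lymphocytes, dendritic cells and macrophages.

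The series holds 50 libraries of C57BL/6 mice, 38 of RNA and 12 of ATAC (an assay of open chromatin), in 14 groups. Kidney and liver of untreated young females (2.5 months) and old females (23 to 25 months) gave 4 RNA and 3 ATAC libraries per tissue and age. Kidney and liver of old mice (20 to 21 months) given DMSO, the solvent control, or 3C gave 4 RNA libraries per tissue and treatment. Cultured skin fibroblasts labelled P9, with DMSO or 3C, gave 3 each. The sources used here say neither what 3C is nor its dose, nor what P9 stands for. Nothing in the labels says that libraries with different replicate numbers came from different animals or cultures, so the p-values below measure the spread between libraries only. The tissues were taken whole, so fewer cells of a type and less RNA per cell cannot be told apart. The RNA libraries held 14.2 to 43.7 M counts. Kidney tubule markers summed to at least 11438 CPM (counts per 1000000 counts of the library) in young and old kidney and to at most 0.827 in young and old liver. The library old kidney 2 carried 2808 CPM of summed hepatocyte markers against 96.1 to 144 in young kidney, and old kidney 4 was the deepest library, with 43.7 M counts. The DMSO and 3C libraries list 0 unaligned reads where the untreated ones list many, so these sets were not compared with each other.

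Levels are given as CPM, with library sizes scaled by the TMM method. Between genes they are given per kilobase of exon. On that scale Jund, the JUN member that most resting tissues express steadily, was the highest member in each of the 10 groups, at 63.7 to 140 CPM per kb. Jun and Junb followed it in each group. In young kidney Jun (11.1 CPM per kb ± 1.26, SD, n = 4) stood above Junb (6.84 ± 0.553) with no overlap of libraries, and in old kidney the pair overlapped at 14.3 ± 1.23 and 14.6 ± 2.93. In old liver the order was the other way, with Junb at 32.6 CPM per kb ± 11.8 and Jun at 5.71 ± 2.87, and the libraries did not overlap. The exons of Jund overlap a gene on the opposite strand over 52.6% of their length, those of Fosl1 over 57.2% (Ccdc85b), those of Junb over 7.52% (Prdx2) and those of Jun over 7.28%. Reads were counted without regard to strand, so reads of a gene and its partner cannot be told apart in these stretches. Ccdc85b and Prdx2 are in the count tables and the partners of Jund and Jun are not. Shared reads may therefore be missing from Fosl1 and Junb and added to Jund and Jun, and the size of this was not tested. The limits given below for absent Fosl1 counts do not cover it.

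Among the FOS genes, Fosb was at 0.161 to 0.327 CPM per kb in DMSO fibroblasts, at 0.0461 to 0.106 in DMSO liver and at 0.0497, 0.075 and 0.134 in 3 DMSO kidneys, with 1.35 in DMSO kidney 1. Fosl2, which encodes FRA-2, was at 9.57 CPM per kb ± 1.31 (n = 3) and Fos at 6.52 ± 1.71 in DMSO fibroblasts, where their libraries overlapped, against 2.94 ± 1.31 and 2.97 ± 3.46 in DMSO kidney and 1.53 ± 0.329 and 1.24 ± 0.311 in DMSO liver (n = 4 each). Fosl1, which encodes FRA-1, was counted at 2.54 to 3.11 CPM in DMSO fibroblasts and at no more than 0.076 CPM in DMSO kidney and 0.264 in DMSO liver. In the untreated organs it had 0 counts in the 8 young and old liver libraries, which allows up to 0.21 to 0.265 CPM in young and 0.168 to 0.265 CPM in old liver (counting error only, from the limit of 3 counts), and it reached at most 0.234 CPM in young or old kidney. Batf3 was distributed the other way, with at most 0.194 CPM in fibroblasts against 2.37 to 3.98 CPM in DMSO kidney and 1.80 to 3.44 CPM in DMSO liver. In DMSO fibroblasts 8 T cell markers summed to at most 0.809 CPM, with Cd3d and Cd3g at 0, and 7 dendritic cell markers to 1.74 to 2.06 CPM. Macrophage markers summed to 226 to 290 CPM there. Whether any of these cell types had a part in the level of Batf3 was not tested. The plot of levels by group gives each library.

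**Figure D1:**
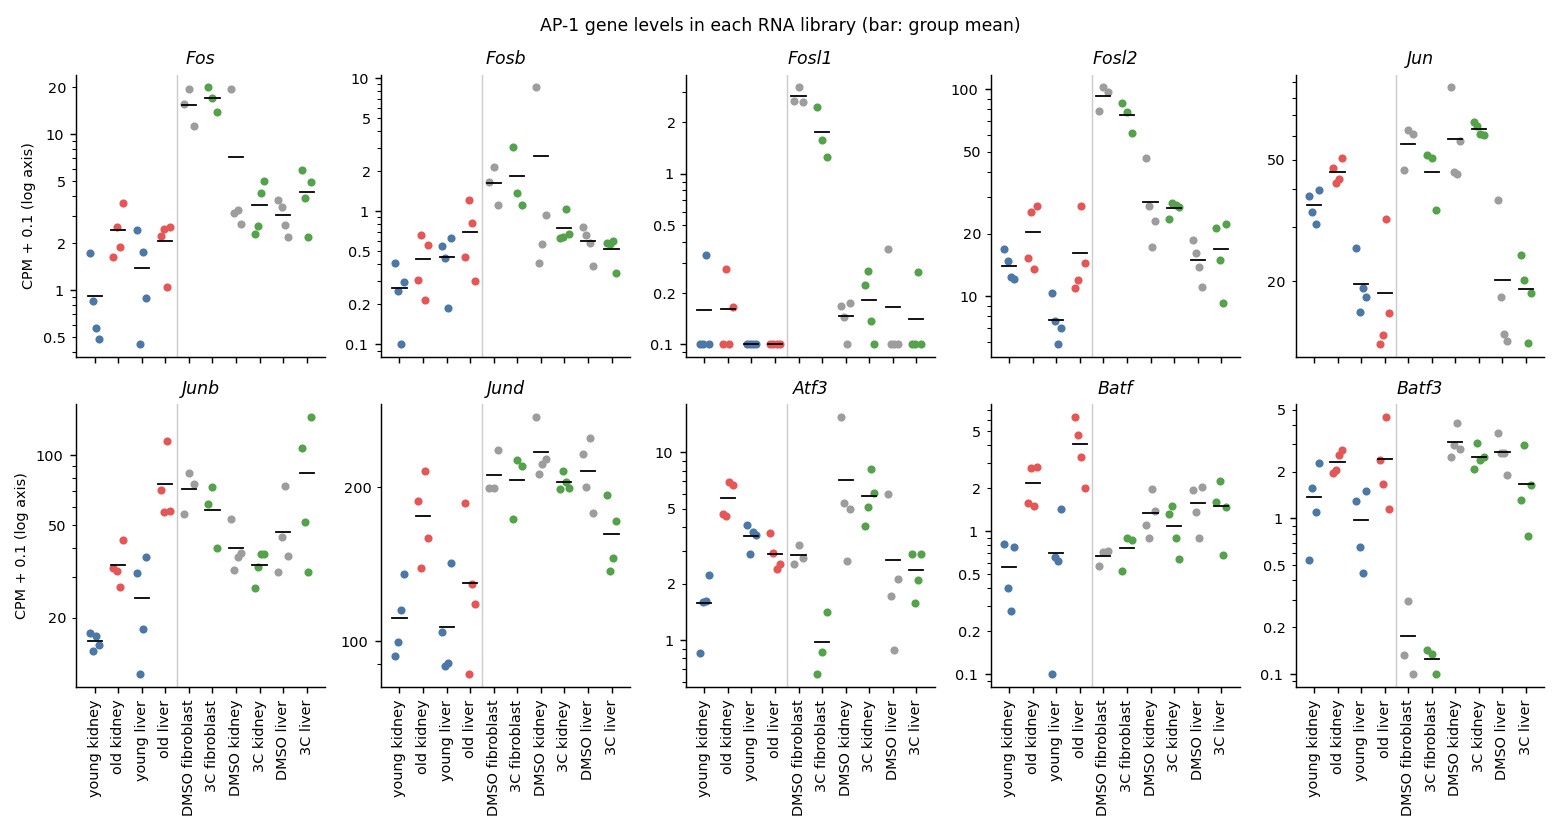
Level of each AP-1 gene in each RNA library, in CPM on a log axis, by group, drawn as CPM + 0.1, with a point for each library and a bar at the group mean. Fosl1 is at or near 0 in liver and kidney, Batf3 is near 0 in fibroblasts, and DMSO kidney 1 stands above its group for Fos (19.2 CPM) and Fosb (8.42 CPM).

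Old against young kidney asked which subunits changed with age in that organ. Of the 8 members that passed the filter on low counts (Fosb and Fosl1 did not), 3 rose by more than 2-fold at an adjusted p under 0.05 and 0 fell, where 5.68% of the 14495 genes tested rose and 0.407% fell. DESeq2 called 4 members and 6.46% of genes higher, and 0 members lower. The 7 members with an unadjusted p under 0.05, as 30.1% of genes had in either direction, all had a difference above 0. The median log2 difference of the 8 was 1.01, against 0.021 over all genes. In 5 of the 8 each old library lay above each young one, which held for 9.5% of genes.

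Among the JUN genes, Junb (chr8:84974484-84978718, - strand, GRCm38), which can oppose or replace JUN at its sites, stood at 17.0, 14.3, 16.6 and 15.1 CPM in the young kidneys and 32.6, 31.5, 27.1 and 43.0 in the old. The groups did not overlap and the log2 fold change was 1.16 ± 0.16 (SE, adjusted p = 0.00231). Jund was at 93.4, 99.6, 115 and 135 CPM in young and 188, 139, 215 and 159 in old kidney. Its libraries did not overlap either, although the difference was under 2-fold (log2 0.71 ± 0.16, adjusted p = 0.0188). Jun, the strongest activator of the group, was at 30.8 to 39.8 CPM in young and 41.8 to 50.4 in old kidney, again without overlap, and missed the threshold (log2 0.42 ± 0.12, adjusted p = 0.0511). So the 3 JUN genes were higher in each old kidney library, by sizes from 1.34-fold for Jun to 2.24-fold for Junb.

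Atf3 (chr1:191170296-191218039, - strand), a gene induced by many kinds of cell stress, was at 0.753, 1.5, 1.52 and 2.12 CPM in young kidney and 4.57, 4.48, 6.82 and 6.57 in old kidney. Each old library held more than 2 times the highest young one, and the log2 fold change was 1.99 ± 0.32 (adjusted p = 0.00417). Batf (chr12:85686669-85709087, + strand) was at 0.709, 0.3, 0.176 and 0.676 CPM in young and 1.48, 2.65, 1.39 and 2.73 in old kidney. These are low counts in non-overlapping groups, with a log2 fold change of 2.21 ± 0.48 (adjusted p = 0.0158). Batf3, needed for one lineage of dendritic cells, overlapped between the ages (log2 0.87 ± 0.42, adjusted p = 0.195).

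Fos, the founding immediate early member, was at 1.64, 0.750, 0.468 and 0.386 CPM in young kidney and 1.52, 2.45, 1.78 and 3.54 in old kidney. Young kidney 1 lay within the old range, and the difference of log2 1.59 ± 0.48 did not pass (adjusted p = 0.0605). Fos was called by DESeq2 (1.57, adjusted p = 0.0142) and without young kidney 1 (2.17, adjusted p = 0.0225), and its adjusted p over the settings with all libraries ran from 0.0142 to 0.114. Fosl2 overlapped as well, at 12 to 16.8 against 13.4 to 27.1 CPM (log2 0.62 ± 0.25, adjusted p = 0.139). The fold changes were similar without old kidney 2, the library with liver transcripts: 3 members again rose, with Junb at 1.18, Atf3 at 2.07 and Batf at 2.06. Without old kidney 4 the count was 1, since Junb came to 1 and Batf to an adjusted p of 0.0559, and without young kidney 2 the call of Batf was lost as well (0.0589), where the adjusted p of Batf ran from 0.0147 to 0.0589 over the libraries left out in turn. Junb also came to 0.80 once a trend with gene length and GC content was removed.

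Markers of immune cells moved with these genes. In old kidney, 9 of 9 macrophage, 6 of 7 B and plasma cell, 6 of 7 T cell, 5 of 7 dendritic cell and 3 of 3 neutrophil markers tested rose. The macrophage sum went from 125 to 153 CPM in young to 603 to 1177 in old kidney, and the B and plasma cell sum from 4.68 to 9.70 to 271 to 401. The T cell sum was 4.42 to 7.36 in young and 24 to 31.9 in old, and the dendritic cell sum 5.85 to 10.2 and 15.4 to 27.8. Neutrophil markers summed to 0.620 to 1.93 and 5.81 to 21.9 CPM. Kidney tubule markers summed to 13537 to 16427 CPM in young and 11438 to 12800 in old kidney, with 0 of 8 called. The part of these cell types in the differences of the AP-1 genes was not tested.

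Other genes of the pathway were taken from fixed lists. Of 25 kinases and regulators upstream of AP-1, 1 rose in old kidney (Mapk11, a p38 kinase, log2 1.39) and the median was -0.26. Of 13 feedback phosphatases and RNA decay factors, 1 rose (Dusp2, log2 1.74), and of 12 other bZIP relatives tested, 1 rose (Maff, log2 1.34). No gene of these 3 lists fell. Among 18 other immediate early genes tested, 4 rose (Gadd45b 1.21, Egr2 2.82, Nr4a1 1.23 and Nr4a3 2.29 on the log2 scale), and all 18 had a difference above 0, with a median of 0.6.

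Of 17 tested genes that textbooks list as AP-1 targets, 8 rose and 0 fell, with a median of 1.41. They included the matrix protease Mmp3 (log2 2.80), the metalloprotease inhibitor Timp1 (3.61), the adhesion receptor Cd44 (2.99), the chemokine Ccl2 (3.53) and the cytokines Il1b (2.03) and Lif (2.47). Immune cells can also express several of these genes, and the part of such cells in these differences was not tested.

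**Figure D2:**
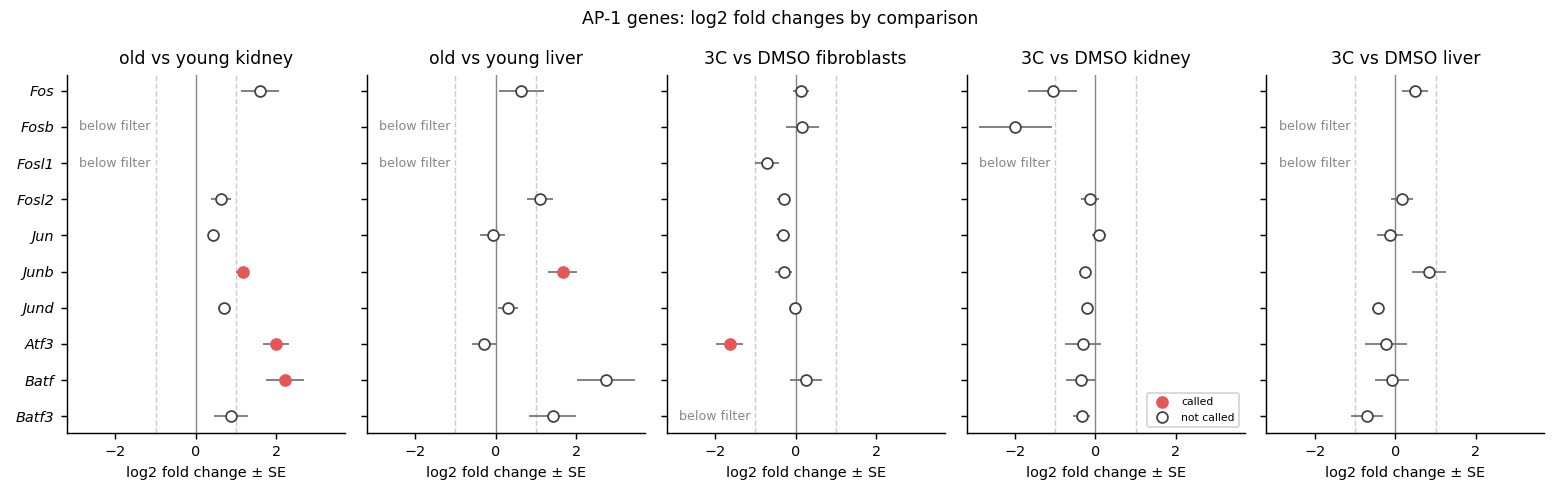
Log2 fold change of each AP-1 gene that passed the filter, with its standard error, in the comparisons of age and of 3C. Filled symbols passed the adjusted p and the 2-fold limit: Junb, Atf3 and Batf in old kidney, Junb in old liver, and Atf3 in the opposite direction in 3C fibroblasts.

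In liver, 1 of the 8 members that passed the filter rose with age and 0 fell, where 1.69% of 12537 genes rose and 0.439% fell. DESeq2 called 3 members and 3.42% of genes higher, and 0 members lower. The 4 members with an unadjusted p under 0.05 had differences above 0, and 14.7% of genes were under that limit in either direction. The median of the members was 0.87 (all genes 0.003). Junb was at 31.1, 11.3, 17.7 and 36.5 CPM in young liver and 70.5, 56.8, 115 and 57.7 in old liver, so that the lowest old library held more than the highest young one (log2 1.66 ± 0.37, adjusted p = 0.0425). That call was lost when any of young liver 1, 2 or 3 or old liver 2 or 3 was left out, with adjusted p-values over all the left-out libraries from 0.0321 to 0.149. It was also lost with a replicate block (1.73, adjusted p = 0.0596).

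Batf was at 0, 0.559, 0.521 and 1.32 CPM in young liver and 6.17, 4.59, 3.18 and 1.91 in old liver. The groups did not overlap, and the difference of log2 2.74 ± 0.71 missed the threshold (adjusted p = 0.0729). Fosl2 was at 5.74 to 10.2 CPM in young and 10.8 to 27.2 in old liver, also without overlap (log2 1.10 ± 0.32, adjusted p = 0.111). Those 3 genes, Junb, Batf and Fosl2, were the members whose groups did not overlap, where 5.85% of genes were higher in each old library. DESeq2 called these 3, with adjusted p = 0.00187 for Batf and 0.032 for Fosl2, whose adjusted p-values over the other settings reached 0.188 and 0.272. Batf was also called with the length and GC trend removed (2.67, adjusted p = 0.0414), and Fosl2 without old liver 1 (1.25, adjusted p = 0.0447).

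The remaining members were close to level or too variable. Jun was at 15.7 to 25.5 CPM in young and 12.3, 13.2, 31.8 and 15.6 in old liver, with a difference of -0.07 ± 0.31 and an approximate 95% interval from -0.68 to 0.54. Jund differed by 0.31 ± 0.25 and Fos by 0.64 ± 0.55. Batf3 differed by 1.41 ± 0.58 (adjusted p = 0.278).

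Atf3 took another course in liver than in kidney. It was at 3.99, 2.79, 3.65 and 3.52 CPM in young liver and 3.62, 2.80, 2.30 and 2.44 in old liver (log2 -0.30 ± 0.30, adjusted p = 0.76). Young liver held more Atf3 than young kidney (log2 1.25 ± 0.34, adjusted p = 0.00607), and in old animals the kidney libraries, at 4.48 to 6.82 CPM, all exceeded the liver libraries. The difference between the age effects, tested as an interaction, was -2.25 ± 0.41 (adjusted p = 0.0118). Atf3 was the only member past the threshold there, at which 1.72% of 15036 genes passed, and the other 7 differences ran from -0.89 ± 0.76 for Fos to 0.60 ± 0.90 for Batf. With a replicate block Atf3 did not pass in the interaction (-2.29, adjusted p = 0.0666).

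The contrast of the young organs named 1 member higher in liver, Atf3, and none lower by more than 2-fold, where 16.9% of 14057 genes were higher and 25.7% lower. DESeq2 called 0 lower too, and 3 of the 7 members tested had an unadjusted p under 0.05 in either direction, a smaller share than the 68.3% of all genes. Jun and Fosl2 were lower in liver by less than 2-fold, at log2 -0.86 ± 0.17 (adjusted p = 0.000785) and -0.87 ± 0.21 (adjusted p = 0.00332). This contrast depends on the scaling. Without TMM, the median of all genes moved from -0.078 to -1.158, and Atf3 came to 0.18, which is 1.34 above that median, against 1.33 above it with TMM.

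Among immune markers in old liver, 5 of 5 neutrophil, 4 of 5 B and plasma cell and 3 of 9 macrophage markers rose, and 0 of 6 T cell and 0 of 5 dendritic cell markers did. Neutrophil markers summed to 4.54 to 9.06 CPM in young and 22.1 to 188 in old liver, and B and plasma cell markers to 6.99 to 9.41 and 29.7 to 133. Macrophage markers summed to 894 to 1307 and 1357 to 2607 CPM, T cell markers to 5.04 to 9.10 and 12.2 to 19.7, and dendritic cell markers to 9.41 to 11.6 and 8.11 to 18.1. Whether they had a part in the higher Junb was not tested. Among AP-1 targets, 1 of 13 rose (Hmox1, heme oxygenase, log2 1.29), with a median of 0.77. None of the 14 other immediate early genes, 11 bZIP relatives, 24 upstream kinases and regulators or 13 feedback genes tested passed.

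In skin fibroblasts the comparison of 3C with DMSO passed the filter for 9 members (not Batf3). Atf3 fell, from 2.44, 3.11 and 2.64 CPM with DMSO to 0.558, 0.768 and 1.31 with 3C. The lowest DMSO library held more than the highest 3C library, and the log2 fold change was -1.64 ± 0.33 (adjusted p = 0.0231). It was the 1 member called lower, where 0.632% of 13449 genes were lower and 1.23% higher. No member was called higher by edgeR or DESeq2, and the 2 of 9 with an unadjusted p under 0.05 were both lower, where 20.2% of genes were under that limit in either direction. The call was lost without DMSO fibroblast 2 or 3 or 3C fibroblast 1 or 2, with adjusted p-values from 0.009 to 0.103 over the libraries left out.

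Fosl1 was at 2.58, 3.11 and 2.54 CPM with DMSO and 2.36, 1.47 and 1.16 with 3C. Fosl1 and Atf3 were the 2 members lower in each 3C library, as were 13.7% of genes, and the difference of Fosl1, -0.71 ± 0.29, did not pass (adjusted p = 0.2). Fosl2 (-0.30 ± 0.15), Jun (-0.31 ± 0.17) and Junb (-0.29 ± 0.21) had differences below 0 with overlapping libraries, and Jund differed by -0.02 (approximate 95% interval -0.30 to 0.25). Fos, at 15.5, 19.3 and 11.2 against 19.8, 16.8 and 13.8 CPM, differed by 0.14 ± 0.20.

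Of 18 AP-1 targets tested in fibroblasts, 5 fell and 0 rose, with a median of -0.86 against 0.007 over all genes. They included the collagenase Mmp13 (log2 -2.52), the prostaglandin synthase Ptgs2 (-1.64), Timp1 (-1.02) and the urokinase receptor Plaur (-1). None of 18 other immediate early genes passed. One gene passed in each of these lists: Map2k6 among 24 kinases and regulators (1.87) and Dusp10 among 12 feedback genes (-1.04). Macrophage markers summed to 226 to 290 CPM with DMSO and 85.8 to 135 with 3C, with 1 of 9 lower (Lyz2, -1.35), and their part was not tested. Fibroblast markers summed to 13486 to 18424 CPM with DMSO and 13813 to 18205 with 3C.

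In kidney and liver of old mice, 3C against DMSO gave no called member. In kidney the quasi-likelihood test of edgeR called 0 genes in all (0% of 14974 higher and 0% lower), 1786 genes (11.9%) had an unadjusted p under 0.05, and DESeq2 called 0 higher and 8 lower. The 1 member under that unadjusted limit was Jund, at 274, 212, 222 and 227 CPM with DMSO and 198, 215, 205 and 199 with 3C (log2 -0.22 ± 0.08, adjusted p = 0.306). In liver, again 0 genes were called (0% of 13042 in either direction), 436 (3.34%) had an unadjusted p under 0.05 and DESeq2 called 3 higher and 0 lower. Jund was the 1 such member there too, at 232, 200, 248.7 and 178 CPM against 193, 137, 145 and 172 (log2 -0.43 ± 0.15, adjusted p = 1).

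The library DMSO kidney 1 stood apart for the inducible members. Fos was at 19.2 CPM in it and 3.02, 3.16 and 2.55 in the other DMSO kidneys, against 2.19, 2.46, 4.10 and 4.88 with 3C. Fosb was at 8.42 CPM in it and 0.311, 0.468 and 0.836 in the others, against 0.528 to 0.949 with 3C. Atf3 (15.3 against 2.54 to 5.28 CPM) and Fosl2 (46.4 against 17.2 to 27.2) were highest in that library as well. With it the log2 differences of Fos and Fosb were -1.06 ± 0.61 and -1.99 ± 0.90, and without it they were 0.20 and 0.21. Atf3 went from -0.31 to 0.41 and Fosl2 from -0.13 to 0.21.

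In the treated livers Junb spanned 31.2 to 73.9 CPM with DMSO and 31.3 to 146 with 3C, a difference of 0.84 ± 0.42 (adjusted p = 1). Its libraries overlapped across that range. No gene of the 14 lists, immune markers included, was called in either organ by edgeR. The summed markers of 3 cell types were lower in each 3C kidney than in each DMSO kidney: macrophages at 265 to 404 against 419 to 462 CPM, dendritic cells at 17.7 to 21.0 against 23.6 to 26.8, and fibroblasts at 204 to 330 against 369 to 477. In liver this held for T cell markers, at 6.32 to 8.17 against 10.6 to 15.5 CPM. The summed bZIP relatives went the other way in kidney, at 374 to 418 CPM with 3C against 317 to 353. Among single genes, 3.02% were lower and 4.17% higher in each 3C kidney, and 0.866% were lower and 1.42% higher in each 3C liver. The part of these cell types in the values of the AP-1 genes was not tested. A p that misses the threshold does not show that 3C left the genes unchanged. The approximate 95% interval for Jun in kidney ran from -0.25 to 0.41 and in liver from -0.78 to 0.52.

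The genes most like each member were sought over 13936 genes by Pearson's r of log2 CPM after the mean of each of the 10 groups was removed, over 38 libraries. Depth differed between libraries of a group. Fos was most like Egr1 (r = 0.76), Ccn1 (0.72) and Nr4a2 (0.63), 3 other immediate early genes. Junb was most like Cxcl1 (0.76), Socs3 (0.75) and Napsa (0.75), and Fosl2 like Foxk2 (0.78), Stat3 (0.78) and Spata2 (0.75). Jun was most like Enpp3 (0.77), Sec14l1 (0.75) and Icam1 (0.75). Jund had the highest values, with 0.91 for Zfp358 and 0.88 for Map1lc3a. Atf3 had lower ones, with 0.60 for Tmem204, and Batf was most like Pde5a (0.67) and Batf3 like Mbip (0.75). Between members, Fosl2 and Jun came to 0.74, Fosl2 and Junb to 0.60, and Fos and Batf to -0.16, the lowest pair.

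Promoter sequences are shown for 4 members that the results turn on: the inducible Fos and Fosb, Jun, and Junb, which rose in both organs. Each is the 250 bases before the RefSeq start (GRCm38.p6), read 5′ to 3′ on the strand of the gene, and 9 of the 10 members had an entry. The windows are chr12:85473640-85473889 (+) for Fos, chr7:19310046-19310295 (-) for Fosb, chr4:95052223-95052472 (-) for Jun and chr8:84978749-84978998 (-) for Junb. Capitals mark TATAAA in Fos, TGACGCAA in Fosb and TGACATCA, a variant of the AP-1 and CRE letters, in Jun.
Fos: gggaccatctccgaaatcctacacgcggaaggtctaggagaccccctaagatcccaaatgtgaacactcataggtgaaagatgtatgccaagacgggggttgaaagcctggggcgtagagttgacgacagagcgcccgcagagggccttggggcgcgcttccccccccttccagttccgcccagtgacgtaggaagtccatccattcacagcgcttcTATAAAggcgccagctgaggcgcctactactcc
Fosb: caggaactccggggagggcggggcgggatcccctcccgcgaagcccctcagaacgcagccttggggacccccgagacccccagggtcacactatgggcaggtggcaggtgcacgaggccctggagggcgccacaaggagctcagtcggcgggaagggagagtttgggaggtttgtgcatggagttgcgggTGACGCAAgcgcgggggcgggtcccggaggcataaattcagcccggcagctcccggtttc
Jun: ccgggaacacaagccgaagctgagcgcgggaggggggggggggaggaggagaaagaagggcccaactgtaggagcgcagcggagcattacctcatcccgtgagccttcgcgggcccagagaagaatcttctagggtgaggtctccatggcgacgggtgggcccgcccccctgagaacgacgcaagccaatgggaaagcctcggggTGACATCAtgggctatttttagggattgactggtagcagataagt
Junb: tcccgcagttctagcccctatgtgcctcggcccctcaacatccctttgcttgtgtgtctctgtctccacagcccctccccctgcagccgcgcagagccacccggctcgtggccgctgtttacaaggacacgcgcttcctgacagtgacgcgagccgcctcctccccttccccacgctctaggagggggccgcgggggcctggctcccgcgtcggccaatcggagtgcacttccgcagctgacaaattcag
The first capital lies at -33 in Fos, -60 in Fosb and -45 in Jun, counted from the start. TATAAA, searched on the strand of the gene, was in 7.59% of 32851 promoter windows of this length. TGACGCAA was in 0.438% and TGACATCA in 2.93%, both searched on both strands. The AP-1 letters TGANTCA (6.75% of windows), the CRE letters TGACGTCA (1.55%) and the CArG box (1.47%) were in none of the 9 windows, which says only that these letters are not there, and none of the 6 was in the Junb window.

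Open chromatin at the members was read from peaks called separately in each ATAC library, of which there were 93072 to 136849. The value is the fold enrichment of the highest peak within 1 kb of an annotated start site. All 10 members had such a peak in at least 2 young and 3 old kidney libraries, and Atf3 (7.05 ± 0.855 in young and 6.48 ± 0.405 in old, n = 3) and Jun (6.44 ± 0.601 and 6.03 ± 0.953) had the highest means. In liver the same pair led, with Jun at 5.02 ± 0.496 and 4.58 ± 0.536 and Atf3 at 5.11 ± 0.883 and 5.53 ± 1.35. Their libraries overlapped between the ages in both organs, so the higher Atf3 RNA of old kidney stood beside a promoter peak of log2 -0.118 old over young (exact permutation test, p = 0.5). Fosl1, with no counts in these livers, had a promoter peak in 1 of 6 liver libraries.

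In 2 of the 10 members each old kidney library lay above each young one and in 0 below, where 14.6% of 15995 promoters were above and 10.6% below. Fosb was at 3.42, 3.98 and 3.48 in young and 4.80, 4.20 and 6.09 in old kidney, and Junb at 2.36, 2.76 and 2.75 against 4.59, 3.19 and 3.55. For both, the exact permutation test gave p = 0.1, the smallest that 3 against 3 allow. Both depend on the window. The Junb peaks of the old libraries began 968, 915 and 950 bp from a start site, whereas young kidney 1 and 2 had peaks of 4.25 and 4.15 just outside the window, at 1011 and 1135 bp. The Fosb values came from peaks at the start in some libraries and 676 to 704 bp away in others. Within 500 bp neither gene separated. In liver 0 of the 9 members tested were higher and 0 lower, where 8.16% and 7.3% of 15307 promoters were. The old livers had Junb at 2.42 ± 0.737 and the young ones at 2.97 ± 0.241 (exact permutation test, p = 0.4), while its RNA was higher in each old liver library.

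**Figure D3:**
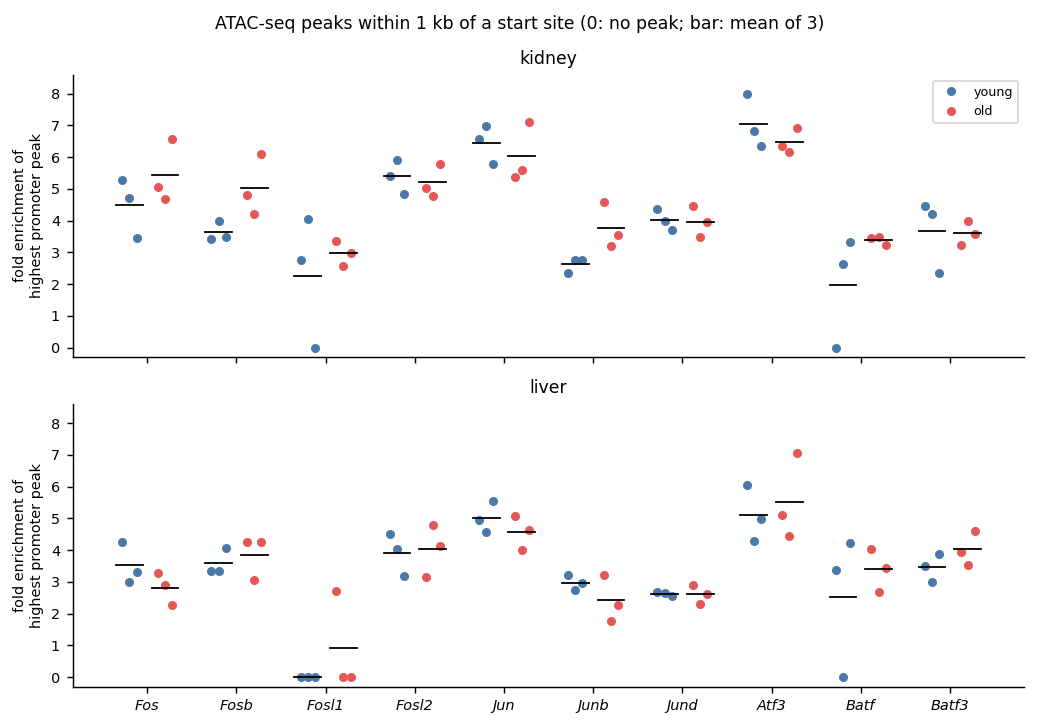
Fold enrichment of the highest promoter peak at each AP-1 gene in each ATAC library, young and old, for kidney and liver, with points for libraries. Fosb and Junb in kidney have their 3 old libraries above the young ones, and Jun and Atf3 are high at both ages.

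Peaks within 20 kb of a member were merged to 121 regions in kidney and 133 in liver, and 73 and 77 of them were called in at least 3 libraries. In kidney, 4 were higher in each old library than in each young one and 6 lower, 2 of them lost (called in each young and no old library), with 0 gained. Over all regions the shares were 5.06% higher, 20.3% lower, 4.29% lost and 0.911% gained. Both lost regions were at Atf3. One, at chr1:191172551-191172823 inside the gene, had 4.81, 4.40 and 3.94 in the young kidneys and no peak in the old. The other, at chr1:191153038-191153464 beyond the 3′ end of the gene, had 3.89, 3.52 and 3.63 in the young. The gene with the nearest start site was Fam71a for both. The RNA of Atf3 was higher in old kidney, and these 2 regions were lower there. The higher regions were 1 at Fosb, 2 at Junb (1 of them at the neighbour Hook2) and 1 at Batf3. The other 4 lower regions were 1 each within 20 kb of Fosb (nearest start Rtn2), Jun, Junb (nearest start Hook2) and Batf3, the last at 8.51, 11.8 and 9.46 in young and 4.40, 4.37 and 6.25 in old kidney.

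In liver 6 regions were higher in old and 3 lower, with 2 gained and 0 lost, where 7.8% of regions were higher, 15.7% lower, 2.18% gained and 3.95% lost. The gained ones were chr4:95030914-95031547 near Jun (3.20, 2.86 and 3.63 in old) and chr1:191114751-191115247 near Batf3 (3.5, 2.62 and 3.52). The region beyond Atf3 that was lost in old kidney was also lower in old liver, at 7.12, 6.65 and 7.41 in young and 5.44, 3.87 and 3.96 in old.

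**Figure D4:**
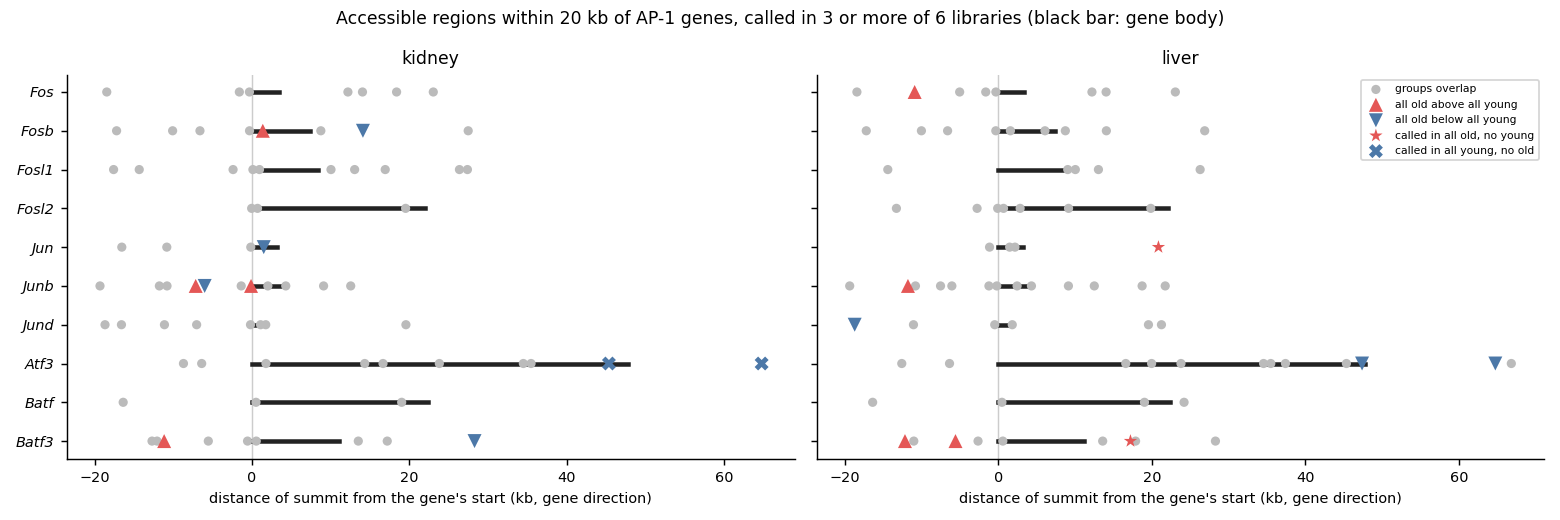
Open regions within 20 kb of each AP-1 gene that were called in at least 3 libraries, by the distance of their summit from the start of the gene in kb (black bar, gene body), for kidney and liver. Coloured symbols mark regions whose old libraries all lay above or below the young ones: Atf3 has 2 lower regions in either organ and no higher one, and Batf3 has 3 higher regions in liver, 1 of them gained.

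Regions with the AP-1 letters TGANTCA within 100 bp of the summit were 11 of 121 (9.09%) in kidney and 9 of 133 (6.77%) in liver. Of all peaks, 7.22% to 9.41% per kidney library and 6.95% to 7.56% per liver library had these letters, so the shares at the members were close to those genome-wide. The share over all merged regions was not computed. Windows of 100 bases either side of the summit are shown for 3 member regions with the letters in kidney (mm10, + strand, capitals mark the match). They are the region beyond Atf3 lost in old kidney (chr1:191153169-191153369), the Batf3 region that was higher in old kidney (chr1:191086577-191086777) and a region upstream of Fosb (chr7:19327168-19327368) that was open in each kidney library at both ages.
Region beyond Atf3, lost in old kidney: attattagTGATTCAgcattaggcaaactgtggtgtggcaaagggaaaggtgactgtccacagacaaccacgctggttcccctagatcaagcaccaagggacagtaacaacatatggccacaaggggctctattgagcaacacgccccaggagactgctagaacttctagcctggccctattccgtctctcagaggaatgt
Batf3 region, higher in old kidney: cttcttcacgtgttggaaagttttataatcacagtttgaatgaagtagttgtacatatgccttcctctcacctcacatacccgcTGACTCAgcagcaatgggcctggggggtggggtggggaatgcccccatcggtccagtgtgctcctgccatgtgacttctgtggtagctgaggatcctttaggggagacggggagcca
Fosb upstream region: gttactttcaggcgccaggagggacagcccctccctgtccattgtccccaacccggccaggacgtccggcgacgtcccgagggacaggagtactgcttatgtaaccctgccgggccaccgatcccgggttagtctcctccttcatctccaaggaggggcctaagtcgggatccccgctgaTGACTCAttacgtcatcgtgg
The Atf3 and Batf3 windows lie outside the genes. The Batf3 region had 2.41, no peak and 2.05 in the young kidneys and 3.27, 3.23 and 2.44 in the old. The Fosb region overlapped between the ages, with 7.18, 6.09 and 4.63 in young and 4.93, 5.31 and 5.88 in old kidney.

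The share of all peaks with these letters near the summit describes how often they lie in open chromatin genome-wide. In kidney it was 7.34%, 7.34% and 7.22% in young and 7.79%, 8.48% and 9.41% in old. Each old library lay above each young one, a difference of 1.26 percentage points (exact permutation test, p = 0.1, the smallest possible). Leaving out 1 library gave 0.836 to 1.64 points, with the lowest value without old kidney 3. In liver it was 7%, 6.95% and 6.98% in young and 7.56%, 7.14% and 7.37% in old, a difference of 0.381 points (exact permutation test, p = 0.1). With peaks at −log10 q of at least 5 the liver difference was 0.722 points and the ages no longer separated (exact permutation test, p = 0.2). Among peaks farther than 1 kb from a start site the differences were 1.61 and 0.446 points. Old kidney libraries had fewer peaks (93072 to 108970 against 115836 to 128395). With the 93072 strongest peaks of each library the difference in kidney was 1.33 points.

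**Figure D5:**
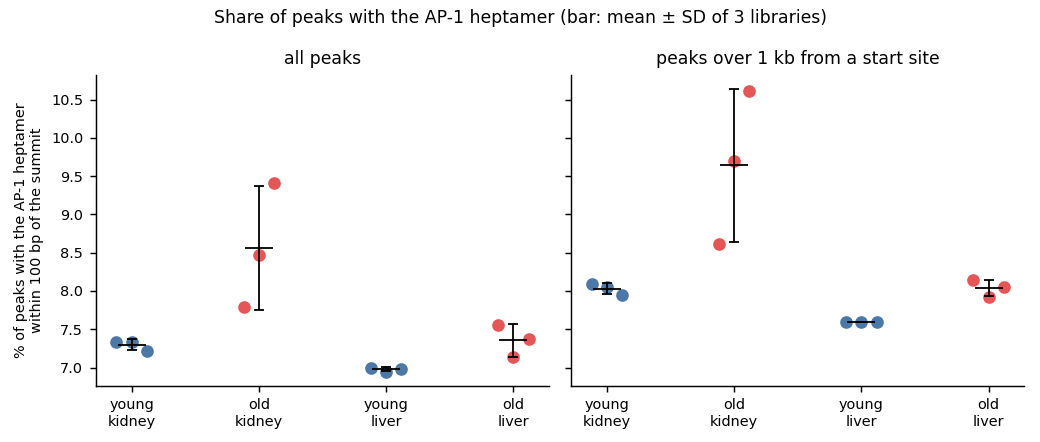
Percent of ATAC peaks with TGANTCA within 100 bp of the summit in each library, young and old, for kidney and liver. The 3 old kidney libraries, at 7.79% to 9.41%, sit above the young ones, and the old livers, at 7.14% to 7.56%, sit above theirs by less.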

How the data were processed

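RNA was measured in 38 libraries and open chromatin in 12. Per the labels, the authors trimmed reads with Trimmomatic (0.39), aligned RNA to mm10 with HISAT2 (2.2.1) and ATAC reads with Bowtie2 (2.3.5.1), and deposited HTSeq (0.12.4) read counts per gene. They also deposited narrow peaks of each library, named for MACS2, with a fold enrichment (a ratio over the local background), a −log10 q-value and a summit. Counting ignored strand, and peaks were called with read ends shifted and extended and no fragment model. Reads that fell on no gene made up 5.853% to 19.11% of the gene, no-gene and ambiguous reads together. That share does not include non-unique alignments or unaligned reads. All rows that name no gene were left out. Totals were 14.2 to 43.7 M counts. The limits given for counts of 0 cover counting error only, and the 95% intervals of fold changes include the spread between libraries.

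The counts were tested with edgeR (4.0.16, R 4.3.3): quasi-likelihood F test on the groups of each comparison, TMM scaling, filterByExpr with a minimum count of 10, and Benjamini-Hochberg adjustment over all genes tested. A gene was called at an adjusted p under 0.05 with a fold above 2 or under 0.5. The age effect was compared between organs as an interaction. DESeq2 (1.42.0), RLE size factors, other filters, a replicate block, removal of a length and GC trend and leaving out each library were alternatives. Each script was tested on simulated data.

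ATAC promoters took the highest peak within 1 kb of a GENCODE start site. Groups were compared by overlap and a two-sided exact permutation test. The AP-1 letters were searched in mm10 within 100 bp of each summit, with python 3.11.15.

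The members and gene lists were chosen with earlier results of these data known. All members are named; other genes are named where called within a list, or as among the 3 most like a member, and some of these are not reported here. Over 54 pairs of libraries of one group, counts differed by a chi-square of at least 8.12 per degree of freedom, so none was taken as a repeat. Libraries of one number deviated together in no comparison for every pair (correlation over 0.1 in 0 to 3 of the pairs). The most were in young kidney and liver, with 3 of 4 pairs over 0.1 and r from 0.1 to 0.43. Whether those organs came from the same mice is not stated, and the main fits did not pair them.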

Additional observations from a re-analysis of the deposited data

Results flagged for a closer look

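By Dixon's test at its 95% critical value, 60 pairs of a member and a group were examined and 3 had a library far from the others. Chance flags about 1 in 20 such groups. In DMSO kidney 1, Fos was at 19.2 CPM against 2.55 to 3.16 in the other 3 libraries of that group, and Fosb was at 8.42 CPM against 0.311 to 0.836. In old liver 3, Jun was at 31.8 CPM against 12.3 to 15.6 in the others. Fosl2 (27.2 CPM) and Junb (115 CPM) were also highest in that library within their group.

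The age effect of Atf3 differed between the organs by -2.25 (liver minus kidney, log2) in the test of the interaction. Each of 4 old kidney libraries was above each young one, and the liver libraries overlapped.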

How the results depend on the processing

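Over the settings other than leaving out a library, 117 summary values stayed on the same side or within 1.5 times and 14 moved, and of single-gene values 429 held, 9 became called, 4 lost a call, 3 promoter values moved and 5 changed sign at 2 decimals. In old liver the count of members called higher, 1, was 3 with DESeq2, 2 with the length and GC trend removed and 0 with a replicate block (Junb 1.73, adjusted p = 0.0596, over settings 0.000788 to 0.0596). The block also ended the call of Atf3 in the interaction (0 members, -2.29, adjusted p = 0.0666, over settings 9.63e-06 to 0.0666), turned Atf3 in 3C liver to 0.02 and changed no other count. Replicate numbers share no stated animal or day, so whether they pair the libraries is not known. In young liver against young kidney, members higher, 1, were 2 with the length and GC trend removed and 0 without TMM. Members lower, 0, were 2 at the adjusted p alone and 4 without TMM, an alternative chosen after seeing the data. Without TMM, Jun in old liver came to 0.003 (0 at 2 decimals), Fos and Junb in the young organs to -0.43 and -0.48, and Jund in 3C fibroblasts to 0.02. With the length and GC trend removed Jund in the young organs came to 0.55. In ATAC, promoters higher in old kidney were 0 within 500 bp. Promoters lower, 0, were 2 by percentile rank and 3 after division by the library median (also chosen after seeing the data) in kidney, and 3 by that division in liver. The motif share in liver differed by 0.569 points with equal numbers of peaks and by 0.722 with −log10 q of at least 5, against 0.381. Under that q limit the ages no longer separated, with old liver 2 at 6.697% and young liver 1 at 6.729% (exact permutation test, p = 0.2). The cause of these shifts was not tested.

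Leaving out each library in turn gave 1 to 4 members higher in old kidney, 0 to 2 in old liver, 0 to 1 lower in 3C fibroblasts and 0 to 2 lower in young liver. Promoters came to 0 to 1 lower in kidney, 0 to 2 higher and 0 to 2 lower in liver. Log2 values changed sign for Jun in old liver (-0.49 to 0.09). In 3C fibroblasts they did so for Fos (-0.03 to 0.33), Fosb (-0.43 to 0.43) and Jund (-0.09 to 0.09). In 3C kidney they did so for Fos (-1.33 to 0.20), Fosb (-2.34 to 0.21), Fosl2 (-0.30 to 0.21), Jun (-0.02 to 0.32) and Atf3 (-0.59 to 0.41). In 3C liver they did so for Jun (-0.30 to 0.35), Atf3 (-0.53 to 0.58) and Batf (-0.35 to 0.17), and in the young organs for Jund (-0.21 to 0.07). None of these was called. Levels under about 1 CPM, as of Fosb, Fosl1 and Batf, rest on few counts, and 3 ATAC libraries a group cannot reach an exact p under 0.1.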
